A study of Meriones unguiculatus with 18 samples.

Results

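Gene expression in the liver of male Mongolian gerbils (Meriones unguiculatus) kept on a normal diet (ND) was followed from 4 to 16 weeks, to describe what a control liver expresses, which of its genes hold a steady level and which differ between the times. The genes described are the assembled transcripts (unigenes) that carry a gene name and lie above the lowest value of the library in all 6 ND libraries of 4 and 16 weeks. They number 2415 of 13172 unigenes, under 2218 distinct names, and the names of 2002 of them match a symbol or synonym of the gerbil annotation. Of the other named unigenes, 936 were above the lowest value in 1 to 5 of the 6 libraries and 416 in none; 2169 unigenes without a name were above it in all 6. At the edge of this rule, Adam19 was the member with the lowest mean (0.566), and MTI, above the lowest value in 5 of 6 libraries, had a mean of 11.5 and lay outside.

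The study held 18 liver libraries, 3 for each of ND and a high-fat diet (HFD) at 4, 8 and 16 weeks, from animals of 40 to 60 g at the start. ND animals ate ordinary feed. HFD feed held 0.5% bile salt, 2% cholesterol, 7% lard (labelled lard bile) and 10% egg yolk powder in 80.5% ordinary feed. Animals grew older as they stayed on the feed, so the effect of age and that of time on the feed cannot be told apart here. The 3 libraries of each time are labelled as separate samples, but one text speaks of 18 gerbils (3 per group) and another of 36 (6 per group), and no source says whether a library is 1 animal or a pool; p-values measure the spread between libraries. Housing texts name both continuous light and a cycle of 12 h of light and 12 h of dark, and no source used here states at what hour tissue was taken.

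As background, the liver is built mostly of hepatocytes, which secrete the plasma proteins, turn ammonia into urea, break down amino acids and drugs, and store and release glucose. In rodents the adult pattern of these enzymes is set after weaning and shifts further with age, feeding and time of day. Resident macrophages, sinusoidal endothelium, stellate cells and blood add their own transcripts to a bulk sample.

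The tissue label was checked against 14 hepatocyte markers, of which 7 had a unigene under their name and 5 were above the lowest value in all 6 libraries. ALB, for serum albumin, stood at 28764 in each of the 6 libraries, the highest value of the table. Cps1, the first enzyme of the urea cycle, had 731, 945 and 991 at 4 weeks and 911, 945 and 731 at 16 weeks. Its times overlapped. The summed level of the hepatocyte markers ran from 30023 up to 31226 at 4 weeks, against 31323 up to 32122 at 16 weeks. Unigenes named Hpx and Ahsg, for hemopexin and fetuin-A, 2 secreted hepatocyte proteins, were at the lowest value in all 6. None of the markers listed for bile duct (13 genes), adipocytes (8) and pancreas or gut (16) was among the names analysed. In bulk tissue, fewer cells of a type and less RNA per cell cannot be told apart.

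All values are normalized expression levels with an unknown abundance unit, so levels are compared between libraries for 1 gene, and the order of genes by level is an order of table values. Every library had been brought to nearly the same sorted values (column sums of 157561 to 157694, each with a top value of 28764), so depth is unknown and a value reflects a rank in its library. Unigenes at the lowest value numbered 5273, 3910 and 4953 at 4 weeks and 4495, 4235 and 4285 at 16 weeks, a difference that an exact two-sided permutation test did not pass (p = 0.4, n = 3 each, smallest possible p 0.1). Across the 2415 genes, which are not independent replicates, Pearson's r of log2(value + 1) lay between 0.967 and 0.976 in the 6 pairs that share a time and between 0.939 and 0.970 in the 9 pairs that do not. ND 4W 2 stood nearest to the 16-week libraries (r 0.959 to 0.970), compared with 0.939 to 0.957 for ND 4W 1 and ND 4W 3.

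By mean level over the 6 libraries, 189 of the 2415 genes lay under 1, 1317 between 1 and 10, 759 between 10 and 100, 136 between 100 and 1000, and 14 at 1000 or more. The 25 highest accounted for 35.9% to 44.9% of the summed level of a library, and ALB alone for 18.2%. A value at such ranks is one of a few fixed steps (8090, 5759.6, 4489 and so on), which the libraries take in turn. The 25 were named for their level alone.

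Secreted proteins were among the 25. Fgg, the gamma chain of fibrinogen, a clotting protein that also rises in inflammation, had 693, 5759.6 and 1031 at 4 weeks and 1134, 5759.6 and 8090.0 at 16 weeks. Its high libraries were ND 4W 2, ND 16W 2 and ND 16W 3, so the times overlapped (log2 change 1.23, SE 0.98, limma adjusted p = 0.59). The most abundant unigene of Mug1, a murinoglobulin that traps proteases, had 1862, 2138 and 5759.6 at 4 weeks and 716, 1263 and 1189 at 16 weeks, with all 3 libraries of 4 weeks above those of 16 weeks (log2 change -1.47, SE 0.48, limma adjusted p = 0.23). Of the other Mug1 unigenes, 3 were higher at 16 weeks (log2 change 2.18, 2.73 and 1.76), and TRINITY_DN34615_c5_g1 overlapped between the times (-0.73). Clu, the secreted chaperone clusterin, had 445, 528 and 504 at 4 weeks and 496, 504 and 1335 at 16 weeks. ND 16W 3 alone stood above the other 5 libraries of Clu, which lay within a narrow band.

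Enzymes of nitrogen and amino acid handling were a further group. Ass1, which joins citrulline and aspartate in the urea cycle, had 2423, 8090.0 and 4489 at 4 weeks and 5759.6, 1862 and 2911 at 16 weeks, and the times overlapped throughout. Tat, the first enzyme of tyrosine breakdown, had 259, 1189 and 428 at 4 weeks and 1189, 1655 and 2138 at 16 weeks. ND 4W 2 and ND 16W 1 held the same value of Tat, and the other 2 libraries of 4 weeks were lower (log2 change 1.66, SE 0.54, limma adjusted p = 0.228). Hpd, the next enzyme of that pathway, had 945, 1335 and 1134 at 4 weeks and 2423, 1335 and 1522 at 16 weeks; its highest library of 4 weeks equalled its lowest of 16 weeks. Mat1a, which makes the liver's methyl donor S-adenosylmethionine, had 487, 627 and 544 at 4 weeks and 875, 911 and 1031 at 16 weeks, without overlap (log2 change 0.77, SE 0.19, limma adjusted p = 0.153).

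Among enzymes of drug handling, Gstm2, a glutathione transferase, had 358, 1263 and 716 at 4 weeks and 1522, 8090.0 and 2423 at 16 weeks; the times did not overlap (log2 change 2.17, SE 0.69, limma adjusted p = 0.224). Cyp3a11 and Cyp2d3, drug-oxidising cytochromes, were among the highest as well. Cyp2d3 had 2138, 1655 and 2138 at 4 weeks and 1073, 842 and 1073 at 16 weeks, lower in every library of 16 weeks (log2 change -0.99, SE 0.24, limma adjusted p = 0.153). A less abundant unigene of that name went the other way (log2 change 1.23). Cyp3a11 had 1655, 4489 and 1655 at 4 weeks and 2138, 1522 and 1862 at 16 weeks, with overlap. Cyp2a3, Cyp2f2 and Adh1, an alcohol dehydrogenase, had log2 changes of 0.53, 0.88 and 0.43, each with at least 1 library of one time inside the range of the other. Copies within the cytochrome, glutathione transferase, murinoglobulin and MHC families can share reads, so a value may belong in part to a near copy.

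Others of the 25 serve general cell functions or antigen presentation. Cat, the peroxisomal catalase, had 1031, 1031 and 1189 at 4 weeks and 731, 756 and 455 at 16 weeks, without overlap (log2 change -0.78, SE 0.25, limma adjusted p = 0.225). Tpt1, a translationally controlled growth protein, had 1522, 1522 and 1862 at 4 weeks and 991, 1073 and 911 at 16 weeks, also lower in all 3 libraries of 16 weeks. Cox7c and NDUFA4, small subunits of the respiratory chain, had log2 changes of -0.68 and -0.62, and their times did not overlap either. RPL17, of the large ribosomal subunit, had a log2 change of 0.0054 (SE 0.23) with a 95% interval inside 2-fold. H2-Q10, a secreted MHC class I protein of mouse liver, was named on 2 of the 25 unigenes, with log2 changes of 0.56 and 0.47. TAR1-A, a name outside the gerbil annotation, ranged from 156 to 4489 over the 6 libraries, a spread of 28.7-fold, with overlap of the times. None of the 25 passed the test of time (limma, Benjamini-Hochberg).

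**Figure D1:**
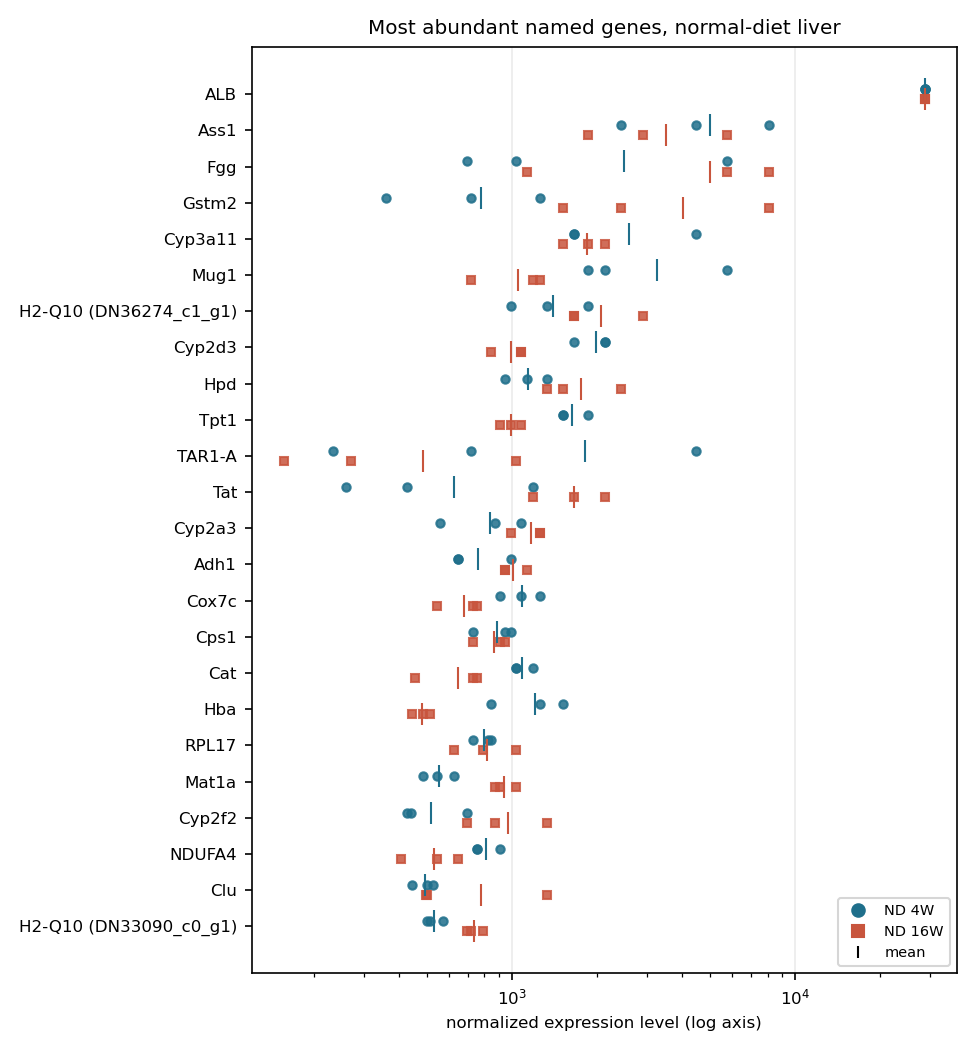
Normalized expression level (horizontal log axis) of named unigenes with the highest means in normal-diet liver, 1 row each (1 of the 25 is not shown), with 3 libraries of 4 weeks (circles), 3 of 16 weeks (squares) and a vertical mark at each mean. ALB sits at 28764 in all 6 libraries, Mat1a and Gstm2 lie higher at 16 weeks and Cat, Tpt1 and Cyp2d3 lower, and Ass1, Fgg and Clu overlap.

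Time was then tested over the whole table, asking which unigenes differ between 16 and 4 weeks on ND. With limma over the 6 libraries, on log2(value + 1) and with Benjamini-Hochberg adjustment, 0 of 8057 unigenes tested had an adjusted p under 0.05 (0% called in either direction, smallest adjusted p 0.133). At an unadjusted p under 0.05 there were 1249 (15.5%), and a fit that took in the 6 HFD libraries of the same times called 36. Of the 2415 genes 2226 were tested and 189 had a mean under 1; none was called. At an unadjusted p under 0.05, 398 of the 2226 (17.9%) stood out. Of these 189 (8.49%) were higher at 16 weeks and 209 (9.39%) lower, beside 7.56% and 7.94% of all unigenes tested. After median-ratio rescaling of the libraries the split was 268 higher and 136 lower, so the balance of directions rests on the scaling. The count also rests on single libraries and on the trend: it was 119 higher and 104 lower without ND 4W 1, 137 higher and 109 lower without ND 16W 3, 132 higher and 132 lower without ND 4W 3 and 115 higher and 110 lower without limma's intensity trend. Rescaling moved the median log2 change of all unigenes from -0.0040 to 0.078.

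The median absolute log2 change was 0.27 in the 2226 tested genes, against 0.44 over all 8057 unigenes. The median log2 change of the 2226 tested genes was -0.063 (middle 90% from -0.74 to 0.81), against -0.0040 over all 8057 unigenes (-1.16 to 1.29). The median SE was 0.25, against 0.46 over all. A change past 2-fold was seen in 105 of the 2226 genes and in 1386 of the 8057 unigenes. Members had to lie above the lowest value in all 6 libraries, a condition that bears on their spread, so these contrasts are no result about them. In 282 genes all 3 libraries of 16 weeks lay above those of 4 weeks (12.7%, against 10.2% of all unigenes tested), and in 375 all lay below (16.8%, against 12.1%). Of the 398 genes with an unadjusted p under 0.05, ND 4W 2 was nearer to the 16-week mean than to the mean of the other 2 libraries of 4 weeks in 129, whereas ND 4W 1 was in 14 and ND 4W 3 in 22. Without ND 4W 2 a single unigene was called: Adh6, an alcohol dehydrogenase, with 61.1, 232 and 55.4 at 4 weeks and 322, 273 and 267 at 16 weeks (log2 change 2.28 in that fit, limma adjusted p = 0.0420). Its value in ND 4W 2 lay near the libraries of 16 weeks, and with all 6 libraries it had a log2 change of 1.62 (limma adjusted p = 0.217).

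**Figure D2:**
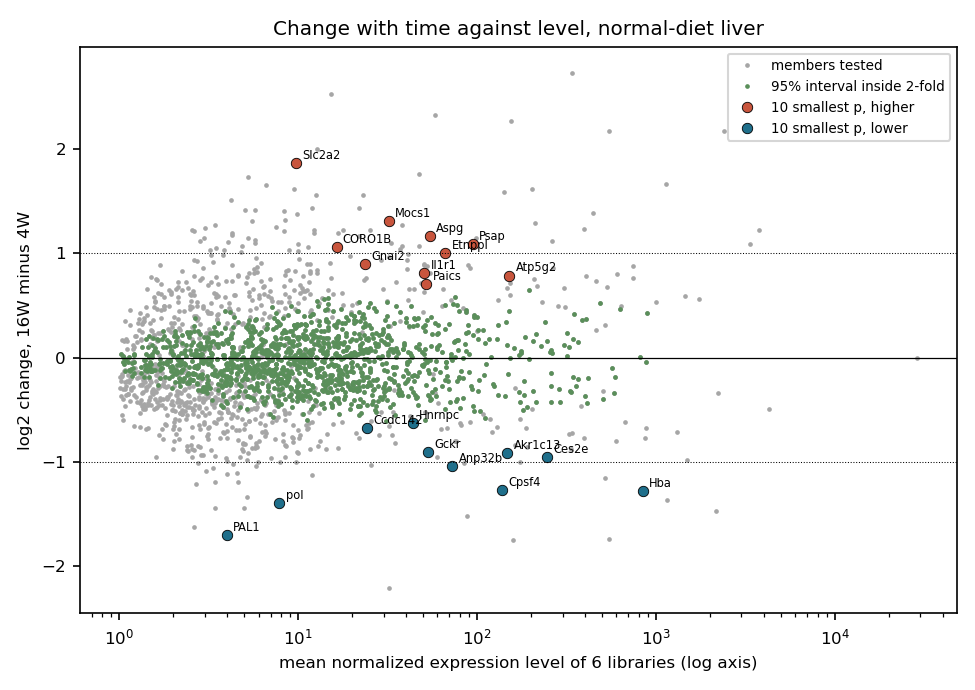
Log2 change from 4 to 16 weeks (vertical axis) against the mean normalized level of the 6 libraries (horizontal log axis) for the 2226 tested genes, with genes whose 95% interval lies inside 2-fold in green and the 10 smallest p in each direction as large points. Dotted lines mark 2-fold, and the named genes lie between -1.71 and 1.86. Green points lie in the band around 0 up to Adh1 at a mean of 885. None of the 14 genes with a mean of 1000 or more is green, ALB included.

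The 10 genes with the smallest p in each direction are described next. None passed the adjustment (limma adjusted p 0.133 to 0.142), and all 20 had 3 libraries of one time on one side of the other, which the choice by p favours. Among those higher at 16 weeks, Slc2a2, the glucose transporter GLUT2 of hepatocytes, had the largest difference. It stood at 2.93, 4.64 and 2.95 at 4 weeks and 9.7, 20.3 and 17.5 at 16 weeks (log2 change 1.86, SE 0.30, limma adjusted p = 0.133). Even its lowest library of 16 weeks was above all 3 of 4 weeks. Mocs1, which starts the synthesis of the molybdenum cofactor, had 23.5, 16.6 and 14.6 at 4 weeks and 51.5, 46.9 and 39.9 at 16 weeks (log2 change 1.31, SE 0.20). Aspg, an asparaginase, had 25.1, 38.8 and 37 at 4 weeks and 68, 73.9 and 84.6 at 16 weeks (log2 change 1.16, SE 0.19). For both genes the gap between the times was wider than the range within either. Etnppl, which breaks down phosphoethanolamine, had 39.5, 41.3 and 50.1 at 4 weeks and 73.1, 99.8 and 94 at 16 weeks (log2 change 1.01, SE 0.17). Paics, an enzyme of purine synthesis, had 36.2, 42.9 and 38.6 at 4 weeks and 63.7, 66.8 and 63 at 16 weeks (log2 change 0.71, SE 0.12), with little spread within each time.

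Others higher at 16 weeks act in lysosomes, membranes and signalling. Psap, the precursor of the saposins that help lysosomes break down sphingolipids, had 49.2, 77.5 and 55.1 at 4 weeks and 125, 128 and 131 at 16 weeks (log2 change 1.09, SE 0.18). ND 4W 2 was the highest of its time and still well below 16 weeks. Atp5g2 (TRINITY_DN34735_c1_g6), a form of subunit c of the mitochondrial ATP synthase, had 108, 125 and 99.8 at 4 weeks and 193, 193 and 189 at 16 weeks (log2 change 0.79, SE 0.13). The 16-week libraries were almost level. Another unigene of that name in its assembly cluster, TRINITY_DN34735_c1_g5, had a log2 change of -0.34. Kat7, Mknk1 and Txndc15 of the same cluster had 0.64, 0.57 and 0.041, and the unigenes may share sequence. Gnai2, an inhibitory G protein subunit, had 15, 17.8 and 16 at 4 weeks and 26.6, 33.9 and 33 at 16 weeks (log2 change 0.90, SE 0.15). CORO1B, a coronin that binds actin filaments, had 10.3, 12.6 and 8.09 at 4 weeks and 22.4, 21.1 and 23.7 at 16 weeks (log2 change 1.06, SE 0.18). Il1r1, the receptor for interleukin-1, had 36, 40.5 and 32.9 at 4 weeks and 57.6, 64.2 and 72.6 at 16 weeks (log2 change 0.81, SE 0.14), again without overlap. In the fit over 12 libraries, 7 genes were called as higher (limma adjusted p 0.0457 to 0.0490, with 0.211% of 9487 unigenes called): Mocs1, Psap, Gnai2 and CORO1B, with Kif1b, Cnp and Cd97. Kif1b, a kinesin motor, had 2.41, 3.73 and 2.53 at 4 weeks and 8.0, 6.79 and 7.95 at 16 weeks. Cnp, a phosphodiesterase of cyclic nucleotides, had 2.78, 6.16 and 3.61 at 4 weeks and 9.57, 12.8 and 14.9 at 16 weeks, and Cd97, an adhesion receptor of leukocytes, 14, 19.8 and 18.3 at 4 weeks and 29.1, 30.4 and 28.8 at 16 weeks. None of these 3 overlapped between times.

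Among genes lower at 16 weeks, Anp32b, an acidic histone chaperone of the nucleus, had the smallest p of all members. It stood at 96.5, 102 and 95.9 at 4 weeks and 51, 45.8 and 45.1 at 16 weeks (log2 change -1.04, SE 0.12, limma adjusted p = 0.133). The 3 libraries of each time lay close together. Hnrnpc, which coats new RNA in the nucleus, had 51, 51 and 58.1 at 4 weeks and 36, 35.3 and 31 at 16 weeks (log2 change -0.63, SE 0.13), and its unigene belongs to the same assembly cluster as Anp32b, so the pair may share sequence. Cpsf4, of the complex that cleaves mRNA for polyadenylation, had 212, 139 and 239.7 at 4 weeks and 93.2, 67.1 and 78.3 at 16 weeks (log2 change -1.27, SE 0.23). ND 4W 2 was its lowest library of 4 weeks, above all of 16 weeks. Many unigenes were named pol, after the polyprotein of retroviruses and retroelements. The pol unigene TRINITY_DN36053_c1_g2 had 11.9, 10.4 and 13 at 4 weeks and 3.27, 3.14 and 5.39 at 16 weeks (log2 change -1.39, SE 0.23). Others of that name went either way. The most abundant, TRINITY_DN34071_c1_g1, overlapped between the times (-0.38), and TRINITY_DN33659_c0_g1 was higher at 16 weeks (2.53). Ccdc142, a coiled-coil protein, had 32.4, 28.7 and 28.8 at 4 weeks and 21, 16.3 and 18.2 at 16 weeks (log2 change -0.67, SE 0.15). Anp32b, Cpsf4, pol (TRINITY_DN36053_c1_g2) and Ccdc142 were the 4 genes called as lower in the fit over 12 libraries (limma adjusted p 0.0376 to 0.0497, with 0.169% of unigenes called).

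Metabolic genes lower at 16 weeks included Gckr, the protein that holds glucokinase inactive in the nucleus, with 67.4, 62.1 and 79.1 at 4 weeks and 43.5, 33.6 and 33.2 at 16 weeks (log2 change -0.90, SE 0.16). All libraries of 16 weeks lay under those of 4 weeks. Creb3l3, a liver transcription factor of lipid and fasting metabolism whose unigene shares an assembly cluster with Gckr, went the other way, with 56.8, 82.2 and 49.1 at 4 weeks and 109.6, 103 and 130.2 at 16 weeks (log2 change 0.88). Akr1c13, an aldo-keto reductase, had 168, 222 and 189 at 4 weeks and 88.9, 115 and 100.4 at 16 weeks (log2 change -0.92, SE 0.16). Ces2e (TRINITY_DN33357_c0_g1), a carboxylesterase, had 344, 263 and 369 at 4 weeks and 187, 143 and 172 at 16 weeks (log2 change -0.95, SE 0.18). Another unigene of that name, TRINITY_DN33685_c6_g1, was higher at 16 weeks, with 27.5, 39.3 and 38.3 at 4 weeks and 59.5, 68.7 and 68 at 16 weeks (log2 change 0.90), and with values summed by symbol the log2 change of Ces2e was 0.031. Hba, the alpha chain of haemoglobin, had 1263, 842 and 1522 at 4 weeks and 445, 516 and 487 at 16 weeks (log2 change -1.28, SE 0.25). It is the member of the erythroid list present in all 6 libraries; 3 of the 16 listed genes had a unigene, and their summed level was 843 to 1529 at 4 weeks, against 446 to 518 at 16 weeks. How much blood was left in the tissue was not tested. PAL1, a name outside the gerbil annotation, had 7.84, 6.64 and 5.2 at 4 weeks and 2.32, 1.32 and 0.565 at 16 weeks (log2 change -1.71, SE 0.35), at levels where the fold depends on the pseudocount.

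**Figure D3:**
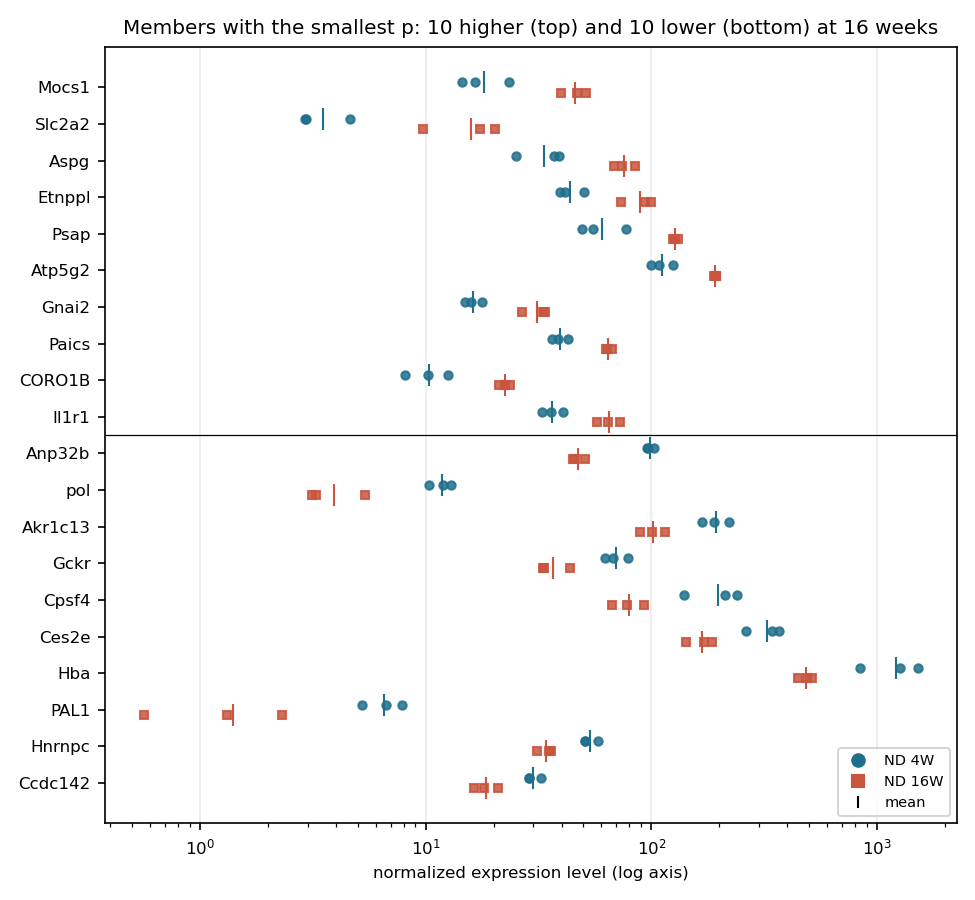
Normalized expression level (horizontal log axis) of the 10 genes higher (above the line) and the 10 lower (below it) at 16 weeks with the smallest p, with 3 libraries of 4 weeks (circles), 3 of 16 weeks (squares) and a mark at each mean. In every row the circles and squares are separate, from PAL1 at 0.565 to 7.84 up to Hba at 445 to 1522.

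Steady genes were counted by the width of the interval and not by a large p. In 1326 of the 2226 tested genes (59.6%) the 95% interval of the log2 change lay inside 2-fold in either direction, against 21.9% of all 8057 unigenes tested. The members were chosen to lie above the lowest value in all 6 libraries, a condition that bears on the width of their intervals (median SE 0.25 against 0.46 over all), so this contrast is no result about them. Of the 1326, 168 had a mean of at least 50. The 15 of them with the narrowest range over the 6 libraries were taken as the steadiest, a choice that fixes their small spread. Dhrs4, a peroxisomal retinol and carbonyl reductase, had the least spread, with 312, 312 and 314 at 4 weeks and 335, 358 and 314 at 16 weeks, a ratio of highest to lowest of 1.15. RPS27L, a ribosomal-like protein, had 147, 156 and 154 at 4 weeks and 159, 159 and 138 at 16 weeks. COPZ1, a coat protein of Golgi vesicles, had 77.8, 69.7 and 80.3 at 4 weeks and 80.7, 78.3 and 79.6 at 16 weeks. The times overlapped in all 3.

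Others of the 15 span the secretory route, lysosomes, mitochondria and metabolism. Spcs1, of the signal peptidase of the endoplasmic reticulum (ER), ran from 49.2 to 57.1, and SAR1B, a GTPase that buds vesicles from the ER, from 84.6 to 100.4. Lamp1, a glycoprotein of the lysosomal membrane, had 226, 229 and 243 at 4 weeks and 267, 251 and 263 at 16 weeks. Its times did not overlap, and the log2 change was 0.16 (SE 0.13), well inside 2-fold. Atp5b, the catalytic beta subunit of ATP synthase, had 298, 304 and 344 at 4 weeks and 363, 301 and 295 at 16 weeks, and Slc25a3, the mitochondrial phosphate carrier, 68, 69.2 and 72.7 at 4 weeks and 85.4, 72.1 and 76.2 at 16 weeks. Rpl4, of the large ribosomal subunit, had 187, 207 and 191 at 4 weeks and 200.5, 207 and 174 at 16 weeks. Gart, of purine synthesis, ran from 46.0 to 56.8, Adhfe1, a mitochondrial hydroxyacid dehydrogenase, from 59.7 to 72.7, and UBE2B, a ubiquitin-conjugating enzyme, from 55.1 to 68.7. Perp, Gng10 and Atraid completed the set with ratios of highest to lowest of 1.23, 1.21 and 1.25. All 15 kept an interval inside 2-fold in each of the 240 alternative fits of these genes.

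Of genes often used as references, 4 of the 23 listed were among the members. RPLP0, of the ribosomal stalk, had 255, 237 and 255 at 4 weeks and 295, 269.7 and 218 at 16 weeks. PPIA, cyclophilin A, had 24.2, 17.6 and 29.8 at 4 weeks and 28.3, 18 and 21.3 at 16 weeks. POLR2A, the largest subunit of RNA polymerase II, had 6.61, 7.46 and 8.89 at 4 weeks and 10.4, 8.48 and 8.78 at 16 weeks. All 3 overlapped between the times and had an interval inside 2-fold. The sign of PPIA turned under rescaling (0.030) and without ND 4W 3 or ND 16W 2. YWHAZ, an adaptor protein, was higher in every library of 16 weeks, with 4.06, 7.13 and 4.75 at 4 weeks and 7.49, 8.97 and 8.52 at 16 weeks (log2 change 0.59, SE 0.23, limma adjusted p = 0.294).

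Gene lists of liver functions were then read from the same fit. No member of any list was called, so each is described by how many tested members had an unadjusted p under 0.05 in each direction and by its median log2 change, beside 7.56% higher, 7.94% lower and a median of -0.0040 over all unigenes tested. Lists of urea and amino acid enzymes, of the clock, of plasma proteins and of P450 enzymes had medians above 0. Lists of oxidative phosphorylation, fatty acid oxidation, antioxidant genes and the proteasome had medians below 0. These signs held in each alternative fit by unigene. The counts are of unigenes, which are not independent where they carry 1 gene name, and a unigene can be on more than 1 list. The 6 acute phase unigenes are of 4 genes, the 12 of plasma proteins of 8 and the 14 of complement and coagulation of 11.

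Of 18 tested unigenes for urea cycle enzymes and for the breakdown of amino acids, 6 were higher at an unadjusted p under 0.05 and 0 lower (median log2 change 0.28, 13 of 18 above 0). Besides Tat and Mat1a, the 6 held Tdo2, which opens the tryptophan ring, with 159, 381 and 224 at 4 weeks and 627, 496 and 792 at 16 weeks (log2 change 1.39, SE 0.34, limma adjusted p = 0.153). They also held Kmo of the kynurenine route (0.55) and Abat, which breaks down GABA (0.44). Tdo2 did not overlap between the times. The urea cycle enzymes Cps1 and Ass1 did not differ beyond their spread: Cps1 had a log2 change of -0.041 (SE 0.22) and Ass1 of -0.50 (SE 0.60). GLUL, the glutamine synthetase of hepatocytes around the central vein, had 145, 178 and 160.3 at 4 weeks and 143, 106 and 128 at 16 weeks, lower in every library of 16 weeks (log2 change -0.36, SE 0.16, limma adjusted p = 0.33). Leaving out 1 library gave 3 to 6 higher, with 3 without ND 4W 1.

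Among 15 tested unigenes of P450 and drug conjugation enzymes 3 were higher and 1 lower at that threshold (median 0.33). Cyp2d3 was not on this list. Its most abundant unigene was lower at 16 weeks (log2 change -0.99) and TRINITY_DN35260_c0_g3 of that name higher (1.23), each at an unadjusted p under 0.05. The higher count was 1 without ND 4W 1 and 6 with the replicate number as a block. The higher ones were Gstm2, Cyp2f2 and a second Cyp2a3 unigene (TRINITY_DN35266_c0_g1), which had 128, 255 and 126 at 4 weeks and 278, 414 and 369 at 16 weeks (log2 change 1.12, SE 0.30). The lower one was Aox1, aldehyde oxidase, with 43.6, 38.1 and 23.7 at 4 weeks and 16.4, 15 and 17 at 16 weeks (log2 change -1.03, SE 0.23, limma adjusted p = 0.15), and no library of one time reached the other. Nr1i3, the xenobiotic receptor CAR, had 369, 278 and 298 at 4 weeks and 298, 229 and 237 at 16 weeks and an interval inside 2-fold. Ugt2b1, a glucuronosyltransferase, and Cyp4a10, a fatty acid hydroxylase, were likewise inside 2-fold (0.12 and 0.15).

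Plasma proteins and carriers had a median of 0.60, with 2 of 12 higher and 1 lower. The counts were 4 and 1 without ND 4W 2, 1 and 2 without ND 16W 3, and 2 and 0 without ND 16W 2. Igfbp4, which binds insulin-like growth factors in blood, had 407, 420.4 and 496 at 4 weeks and 842, 658 and 823 at 16 weeks (log2 change 0.81, SE 0.19, limma adjusted p = 0.153). The most abundant unigene of Fetub, fetuin-B, a protease inhibitor, had 792, 544 and 945 at 4 weeks and 439.9, 369 and 474 at 16 weeks (log2 change -0.80, SE 0.24). Neither gene overlapped between times. A unigene of Cp, the copper carrier ceruloplasmin (TRINITY_DN34961_c1_g1), had 94, 168 and 81.1 at 4 weeks and 141, 263 and 516 at 16 weeks, while the most abundant one had a log2 change of 0.039. ALB was at the top rank throughout, so a change in it could not be seen in these values. In the complement and coagulation list 3 of 14 were higher and 0 lower (median 0.10, from 0.024 without ND 4W 1 to 0.28 without ND 16W 1). These were Klkb1, prekallikrein, with 17.1, 31.3 and 17.6 at 4 weeks and 37.1, 59 and 66.8 at 16 weeks (log2 change 1.28, SE 0.30, limma adjusted p = 0.153), Serpind1, heparin cofactor II (log2 change 0.60), and 1 of the C8b unigenes (1.04). Clotting factors F7 and F9 had log2 changes of 0.0065 and 0.038, inside 2-fold.

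Of the apolipoprotein and lipid transport list 4 unigenes were tested. Apoa4, an apolipoprotein of triglyceride-rich particles that varies with feeding, had 95.3, 39.2 and 27.1 at 4 weeks and 18.7, 8.68 and 4.78 at 16 weeks (log2 change -2.21, SE 0.56, limma adjusted p = 0.161). It was lower in every library of 16 weeks, and libraries of both times differed several-fold among themselves. Apob, the backbone of very low density lipoprotein, had 110.2, 116 and 100.4 at 4 weeks and 103, 134 and 134 at 16 weeks, inside 2-fold. Of 6 unigenes on the acute phase list 1, of Cp, was higher and 0 lower (median 0.83). With 1 library left out the median ran from 0.37 without ND 4W 1 to 1.64 without ND 4W 2, where 3 were higher, and 0 were higher without ND 16W 2 or ND 16W 3. Saa4, a serum amyloid protein, had 7.55, 134 and 11.4 at 4 weeks and 10.4, 110.2 and 27 at 16 weeks, with ND 4W 2 and ND 16W 2 as the high libraries, and its sign turned when single libraries were left out.

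Glucose genes were mixed, with 3 of 13 higher, 1 lower and a median of 0.26; without ND 16W 2 there were 2 lower, and without ND 16W 3 the median was 0.15. Among those higher were Slc2a2 and Tkfc, the triokinase of fructose breakdown, which had 25.6, 31.6 and 23.3 at 4 weeks and 64.2, 66.1 and 36.8 at 16 weeks (log2 change 0.99, SE 0.25, limma adjusted p = 0.156); the lower one was Gckr. Fbp1, of gluconeogenesis, had 716, 572 and 658 at 4 weeks and 544, 557 and 439.9 at 16 weeks, lower in each library of 16 weeks but inside 2-fold (log2 change -0.34). Pygl and Gys2, the liver enzymes that break down and build glycogen, had -0.32 and -0.42. Sord, sorbitol dehydrogenase, had 314, 398 and 358 at 4 weeks and 464, 487 and 428 at 16 weeks, slightly higher at 16 weeks without overlap.

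Fatty acid oxidation and ketogenesis had 0 of 8 higher and 3 lower, with a median of -0.27; without ND 4W 2 there were 2 of each. Eci2, an enoyl-CoA isomerase of peroxisomes and mitochondria, had 1134, 1073 and 349 at 4 weeks and 226, 163 and 308 at 16 weeks (log2 change -1.74, SE 0.47, limma adjusted p = 0.171). ND 4W 3 stood far below the other 2 libraries of its time and above all of 16 weeks. Acsm1, a mitochondrial acyl-CoA synthetase, had 504, 328 and 474 at 4 weeks and 239.7, 226 and 232 at 16 weeks (log2 change -0.88, SE 0.19), and ACOT1, an acyl-CoA thioesterase, a log2 change of -0.42. Of 7 unigenes on the fatty acid and triglyceride synthesis list 1 was higher and 1 lower (median 0.11). The sign rests on single libraries, with a median of -0.096 without ND 16W 2, counts of 0 without it or ND 4W 3, and a median of 0.43 with 2 higher without ND 16W 3. Mlxipl, the glucose-sensing transcription factor ChREBP, had 19, 21.4 and 12.3 at 4 weeks and 27.1, 40.1 and 24.3 at 16 weeks (log2 change 0.76, SE 0.26), and Dgat1, which completes triglycerides, a log2 change of -0.43. Fasn, the fatty acid synthase, had 21.4, 20.02 and 18.9 at 4 weeks and 29.1, 31.8 and 11 at 16 weeks; ND 16W 3 lay below and the other 2 above the libraries of 4 weeks.

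In the cholesterol synthesis list 1 of 6 was higher and 1 lower (median 0.11). These rest on single libraries: the counts were 0 and 0 without ND 4W 1 or ND 16W 2, where the medians were 0.040 and -0.12, without ND 16W 3 they were 2 and 0 with a median of 0.29, and without ND 4W 2 there were 2 lower. Scap, the escort of the sterol-sensing SREBP factors, had 54.5, 44.8 and 62.5 at 4 weeks and 43.7, 38 and 35.2 at 16 weeks (log2 change -0.45, SE 0.16), and a low unigene named insig1 had 1.82, 2.09 and 2.28 at 4 weeks and 4.41, 8.97 and 3.5 at 16 weeks. The main Insig1 unigene, Cyp51a1 and Ebp had log2 changes of -0.26, 0.053 and 0.16, each inside 2-fold. Of 5 genes of bile acid synthesis and transport 3 were higher and 0 lower (median 0.53), or 2 and 1 without ND 4W 2. Fgfr4, the hepatocyte receptor for the intestinal hormone that restrains bile acid synthesis, had 20.8, 29 and 19.7 at 4 weeks and 40.6, 31.7 and 37.6 at 16 weeks (log2 change 0.65, SE 0.19, limma adjusted p = 0.18), and Klb, its co-receptor, 2.44, 2.88 and 2.4 at 4 weeks and 4.54, 3.53 and 5.02 at 16 weeks. Abcc3, which exports conjugated bile acids, had 26.8, 27.2 and 22 at 4 weeks and 35.2, 39.5 and 36.4 at 16 weeks. For all 3 the times were separate.

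Oxidative phosphorylation was the list with the most lower members. Of 23 tested unigenes 9 were lower and 1 higher at an unadjusted p under 0.05, 16 of 23 had a change below 0, and the median was -0.51. Their summed level was 4663, 3830.3 and 5001 at 4 weeks and 3601, 3161 and 2725 at 16 weeks, so every library of 16 weeks lay below every library of 4 weeks. Atp5i, a small subunit of ATP synthase, had 911, 428 and 823 at 4 weeks and 369, 304 and 259 at 16 weeks (log2 change -1.15, SE 0.31, limma adjusted p = 0.171). Ndufs6 and Ndufa2, accessory subunits of complex I, followed the same order: Ndufs6 had 278, 200.5 and 259 at 4 weeks and 163, 126 and 116 at 16 weeks. Ndufa2 had 229, 152 and 249 at 4 weeks and 129, 112 and 104 at 16 weeks. In each case no library of 16 weeks reached those of 4 weeks. Ndufb5, NDUFB11, ATP5G1 and COX6C had log2 changes of -0.58, -0.42, -0.59 and -0.85. Other subunits had smaller changes: Atp5a1 and Atp5b had 0.20 and 0.016, SDHC 0.11 and Ndufa9 0.056, all inside 2-fold. The higher unigene was Atp5g2 (TRINITY_DN34735_c1_g6), while another of that name had -0.34. Leaving out 1 library gave 4 to 11 lower, with 4 without ND 4W 3 or ND 16W 3, and 3 higher without ND 16W 1.

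Translation genes also had a median below 0. Of 40 tested unigenes of ribosomal proteins and translation factors 7 were lower and 3 higher, with a median of -0.16, and 27 lay inside 2-fold. RPS25 and RPL13 had log2 changes of -0.77 and -0.50. The higher ones were factors: the more abundant unigene of EEF2, the elongation factor that moves the ribosome, had 150.5, 224 and 128 at 4 weeks and 286, 255 and 246 at 16 weeks, and the initiation factors Eif4g2 and Eif4b had log2 changes of 0.63 and 0.37. The lower count rests on single libraries and scaling: it was 1 without ND 4W 1 or ND 16W 3, 3 without ND 4W 3 or ND 16W 2, 8 without ND 4W 2 and 12 without ND 16W 1, and after rescaling 4 were lower and 5 higher. In the proteasome list 1 of 7 was lower, PSMC2 (91.8, 85.4 and 73.5 at 4 weeks and 61.1, 44.4 and 50.6 at 16 weeks), and 1 higher, PSMD2 (11, 27.7 and 8.98 at 4 weeks and 32.7, 32.1 and 38.5 at 16 weeks), with a median of -0.36. Without ND 16W 1 there were 4 lower. PSMC2 and PSMD2 are subunits of the proteasome's regulatory cap.

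Of 6 unigenes on the antioxidant and metal handling list 3 were lower and 1 higher (median -0.72), with 1 lower without ND 4W 3 or ND 16W 3. Beside Cat, the lower ones were Gpx4, which detoxifies lipid peroxides, with 243, 166 and 286 at 4 weeks and 164, 140.5 and 123 at 16 weeks, and SRXN1, which restores peroxiredoxins, with 13.2, 16.7 and 10.6 at 4 weeks and 7.54, 5.63 and 6.6 at 16 weeks (log2 change -0.92, SE 0.21, limma adjusted p = 0.153). Hmox1, which breaks down haem, was higher, with 14.2, 13.1 and 13.3 at 4 weeks and 16.2, 24.6 and 24 at 16 weeks (log2 change 0.62, SE 0.19). ND 4W 2 and ND 16W 1 held nearly equal values of Gpx4, and SRXN1 and Hmox1 were separate. Chaperones gave 2 of 13 higher and 3 lower, with a median of -0.024 whose sign turned under rescaling and without ND 4W 2 or ND 16W 2. The lower count was 4 without ND 4W 3, 2 without ND 4W 2 and 1 without any other library. The lower ones were Hspa8, Hsp90aa1 and HSPB1 of the cytosol, where Hsp90aa1 had 80.7, 108 and 51.3 at 4 weeks and 40.5, 37.8 and 38.4 at 16 weeks (log2 change -0.96, SE 0.25, limma adjusted p = 0.171). The higher ones were Canx and Pdia4 of the ER, where Canx, calnexin, had 22.1, 39.5 and 25.8 at 4 weeks and 43.6, 52.5 and 60.5 at 16 weeks (log2 change 0.85, SE 0.23).

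Of 6 tested clock and clock output genes 3 were higher, 0 were lower and all 6 changes were above 0 (median 0.55). Per3, a repressor of the clock, had 4.49, 8.37 and 7.25 at 4 weeks and 11.9, 14.1 and 14.5 at 16 weeks (log2 change 0.94, SE 0.24, limma adjusted p = 0.157). Hlf, a clock-driven transcription factor, had 3.43, 4.93 and 3.55 at 4 weeks and 6.49, 9.0 and 9.62 at 16 weeks (log2 change 0.91, SE 0.23), and Cry2, another repressor, 5.58, 6.7 and 5.14 at 4 weeks and 8.12, 8.73 and 8.59 at 16 weeks. All 3 were above 4 weeks in each library of 16 weeks. Per2 was separate too, with 8.5, 8.64 and 4.56 at 4 weeks and 10.2, 11.4 and 10.1 at 16 weeks, whereas Per1 and Ciart overlapped. Since no hour of sampling is known, time of day and weeks on the feed cannot be told apart for these genes. Sult1e1, an estrogen sulfotransferase under hormone control in liver, was 1 of 2 tested on the growth hormone and sex-dependent list and had 177, 292 and 251 at 4 weeks and 398, 398 and 328 at 16 weeks (log2 change 0.67, SE 0.21).

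**Figure D4:**
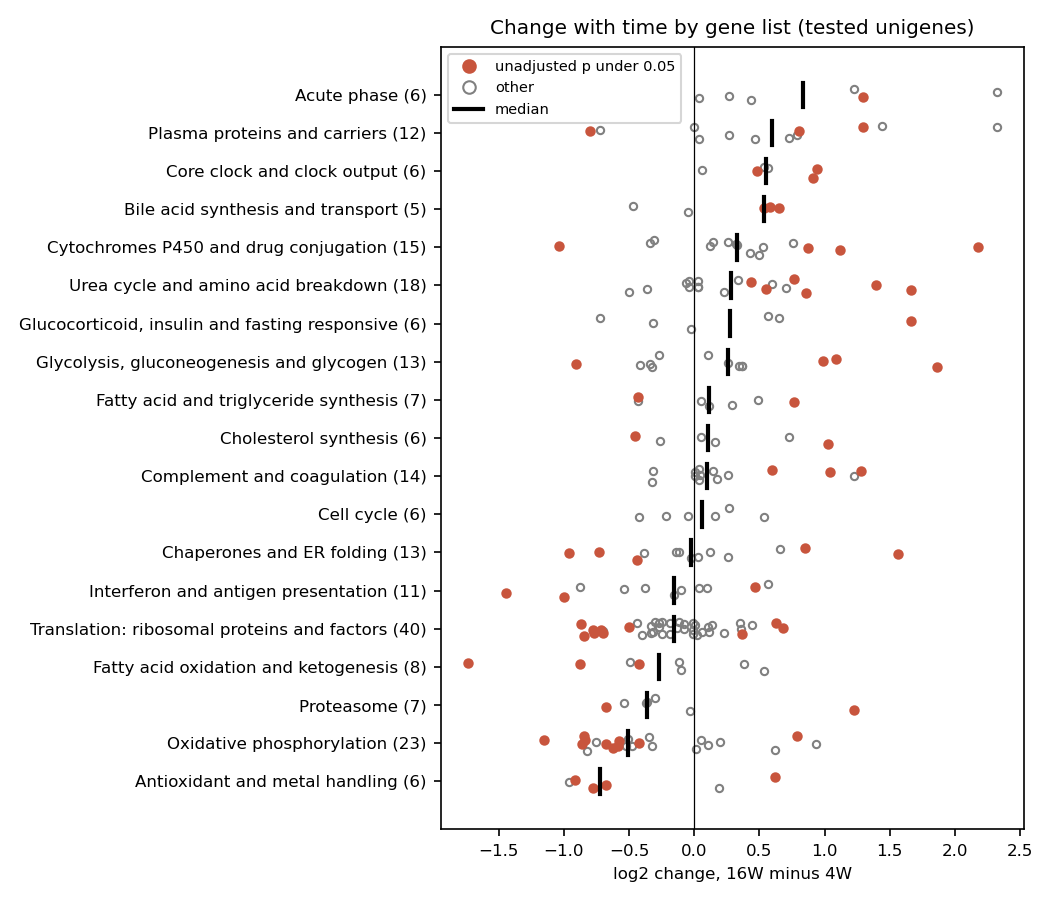
Log2 change from 4 to 16 weeks (horizontal axis) of the tested unigenes of the 19 pathway lists with at least 5 of them, 1 list per row with its number of unigenes, filled points at an unadjusted p under 0.05, open points for the others and a bar at the median. Medians run from -0.72 for the antioxidant list and -0.51 for oxidative phosphorylation to 0.55 for the clock and 0.83 for the acute phase list, whose median ran from 0.37 to 1.64 with 1 library left out.

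A minority of the markers of other liver cells had a unigene. Of 25 macrophage and monocyte markers 9 had a unigene and 7 were in all 6 libraries; their summed level was 41.6 to 42.3 at 4 weeks, against 57.3 to 72.6 at 16 weeks. Cd5l, a protein secreted by resident macrophages, had 9.1, 0.548 and 6.83 at 4 weeks and 22.2, 26.7 and 11.4 at 16 weeks (log2 change 2.01, SE 0.70, limma adjusted p = 0.244). ND 4W 2 was far below the other 5 libraries. Cd5l is part of the summed level above, and without it the sums of the 2 times overlap. Of the 6 tested unigenes of the list, Cd5l was the only 1 with an unadjusted p under 0.05. The median log2 change of the list was 0.46, with 5 of 6 above 0. Cd68, of macrophage lysosomes, had 9.07, 8.83 and 8.78 at 4 weeks and 11.7, 11.6 and 10.7 at 16 weeks, a small difference without overlap, and Gpnmb, a glycoprotein of lipid-laden macrophages, had 2.36, 1.28 and 1.81 at 4 weeks and 1.48, 8.73 and 9.8 at 16 weeks, high in 2 libraries of 16 weeks alone. Stab1, a scavenger receptor, overlapped (log2 change -0.21). Csf1r, Adgre1 and Clec4f, which define liver macrophages, were not among the names analysed. What the macrophage markers contribute to Psap, Cd97 and Il1r1, which leukocytes also express, was not tested.

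Of 24 lymphocyte markers 5 had a unigene, with a summed level of 16.5 to 27.1 at 4 weeks, against 6.05 to 16.5 at 16 weeks. IL7R, the interleukin-7 receptor, had 4.72, 6.36 and 8.61 at 4 weeks and 4.56, 2.57 and 2.62 at 16 weeks (log2 change -0.83, SE 0.30, limma adjusted p = 0.256). In the endothelium list 4 of 18 had a unigene, with a summed level of 26.6 to 38.9 at 4 weeks, against 39.4 to 50.04 at 16 weeks, and Ptprb, an endothelial phosphatase, had 7.61, 16.8 and 7.9 at 4 weeks and 24.2, 23.8 and 26.8 at 16 weeks (log2 change 1.23, SE 0.29, limma adjusted p = 0.153). ND 4W 2 was the highest of its time for Ptprb and below every library of 16 weeks. The other endothelial markers tested, Robo4 and Emcn, overlapped between the times. Robo4 had 13.4, 17.2 and 13.5 at 4 weeks and 18.0, 12.2 and 8.0 at 16 weeks (log2 change -0.25). The median of the list was -0.024, with 1 of 3 above 0, so the higher sum is that of Ptprb. Of 19 stellate cell markers 7 had a unigene, with a summed level of 41.4 to 50.3 at 4 weeks, against 35.7 to 49.4 at 16 weeks. Reln had 20.8, 18.9 and 19 at 4 weeks and 12.3, 16.9 and 13.8 at 16 weeks (log2 change -0.43), Des, desmin, 6.01, 5.6 and 7.14 at 4 weeks and 7.25, 9.89 and 9.19 at 16 weeks, and Col1a1, of type I collagen, was near 1 in all libraries (1.02, 0.941 and 0.921 at 4 weeks and 1.14, 0.591 and 0.626 at 16 weeks). Of 11 unigenes on the interferon and antigen presentation list 1 was higher and 2 lower (median -0.16), with 3 lower without ND 16W 1 and 1 lower without any other library; Oas2, an interferon-induced sensor of viral RNA, had 8.11, 6.24 and 2.36 at 4 weeks and 1.05, 1.6 and 1.07 at 16 weeks (log2 change -1.44, SE 0.42). The cell cycle list had 0 of 6 in either direction, and Mki67, a marker of dividing cells, had 1.07, 0.875 and 1.11 at 4 weeks and 0.614, 0.626 and 0.532 at 16 weeks, under the filter on low values. Afp, the fetal albumin relative, had 1.82, 1.82 and 1.24 at 4 weeks and 1.0, 1.24 and 1.01 at 16 weeks. The remaining lists were short: 0 of 4 tested collagen and matrix unigenes, 0 of 3 pericentral, 0 of 2 fetal and 0 of 1 neutrophil had an unadjusted p under 0.05. In the periportal list 1 of 2 did (Cyp2f2, higher), and in the fasting responsive list 1 of 6 (Tat, higher), and both counts of higher members were 0 without ND 4W 1 or ND 4W 3, as were the first without ND 16W 1 and the second without ND 16W 3.

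The HFD libraries give the same interval of time in animals that the choice of the 20 genes did not use. HFD libraries detect other sets of unigenes than ND libraries, so diet and library set cannot be told apart. Over all unigenes, 2053 to 3012 were at the lowest value in an HFD library of these times, against 3910 to 5273 in an ND library. Of the 2415 members, 121 to 173 were at the lowest value in an HFD library. The rule for members fixes that count at 0 in the ND libraries, so it shows no difference between the diets. The change with time lies within one diet. Of the 20, 19 were tested on HFD, 12 had a change of the same sign and 8 were called in the same direction (limma over 6 HFD libraries, Benjamini-Hochberg). In that fit 9.78% of 8518 unigenes were called higher and 7.24% lower, and of the members tested in it 16.1% and 13.2%. Without the 2 HFD libraries numbered 1 no unigene of 8170 was called (2245 had an unadjusted p under 0.05), and 12 of the named genes still had the same sign.

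Those with higher values on ND that were called as higher on HFD were Psap, Gnai2, Atp5g2 and CORO1B. On HFD Psap had 172, 204 and 189 at 4 weeks and 823, 1134 and 1134 at 16 weeks (log2 change 2.43, SE 0.24, limma adjusted p = 0.00372), and Gnai2 had 62.5, 50.02 and 69.7 at 4 weeks and 243, 312 and 252 at 16 weeks (2.13, limma adjusted p = 0.0029). For both, the HFD values of 16 weeks were far above every ND value. Atp5g2 and CORO1B had log2 changes of 0.73 and 0.91 on HFD, beside 0.79 and 1.06 on ND. Called as lower were pol (TRINITY_DN36053_c1_g2, -1.04), Akr1c13 (-1.16), Gckr (-1.90) and Ces2e (-3.69). Ces2e on HFD had 239.7, 312 and 197 at 4 weeks and 17.5, 12.2 and 27.5 at 16 weeks. Its HFD libraries of 4 weeks lay within the range of the ND libraries, and those of 16 weeks were below every ND library.

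Other genes differed between the diets. Etnppl was called as lower on HFD, with 58.5, 60.2 and 67.4 at 4 weeks and 22.1, 8.22 and 22.7 at 16 weeks (log2 change -1.88, SE 0.36, limma adjusted p = 0.0174), and so was Paics (-0.88, limma adjusted p = 0.0433), while both were higher at 16 weeks on ND. Slc2a2 had 5.68, 3.47 and 3.12 at 4 weeks and 3.3, 0.738 and 3.37 at 16 weeks on HFD, without the higher level of ND at 16 weeks, and Aspg had a log2 change of -1.66 that did not pass (limma adjusted p = 0.0587). The difference between the diets in the change with time was tested as an interaction over 12 libraries, where 10.1% of 9487 unigenes had an adjusted p under 0.05. Of the 20, 12 did: it was -2.50 for Slc2a2 (limma adjusted p = 0.0143), -2.88 for Etnppl (limma adjusted p = 0.00268) and 1.34 for Psap (limma adjusted p = 0.0126). Since the genes were chosen for their change on ND, which enters this difference, the choice bears on its size. PAL1 was listed at 0 in all 6 HFD libraries.

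Of the steadiest 15, 7 were called on HFD and 8 were not. Beside this, 9.78% of all unigenes tested on HFD were called higher and 7.24% lower, and 16.1% and 13.2% of the members. Without the HFD libraries numbered 1, which leaves 2 per time, 0 of 8170 unigenes tested were called, though 2245 had an unadjusted p under 0.05. As every call was lost, this cannot show whether these 7 rest on those libraries. RPS27L had a log2 change of -0.049 (SE 0.17) on HFD, COPZ1 -0.10 and UBE2B -0.070. Rpl4 and Gng10, a G protein subunit, were called as higher on HFD (1.09, limma adjusted p = 0.0123, and 1.17, limma adjusted p = 0.00971). Dhrs4, SAR1B, Adhfe1, Gart and Perp were called as lower, with log2 changes of -1.58, -1.52, -2.43, -1.38 and -0.93. Adhfe1 had 99.8, 86.1 and 101 at 4 weeks and 18.3, 8.92 and 29.1 at 16 weeks on HFD, whereas its 6 ND values lay between 59.7 and 72.7.

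**Figure D5:**
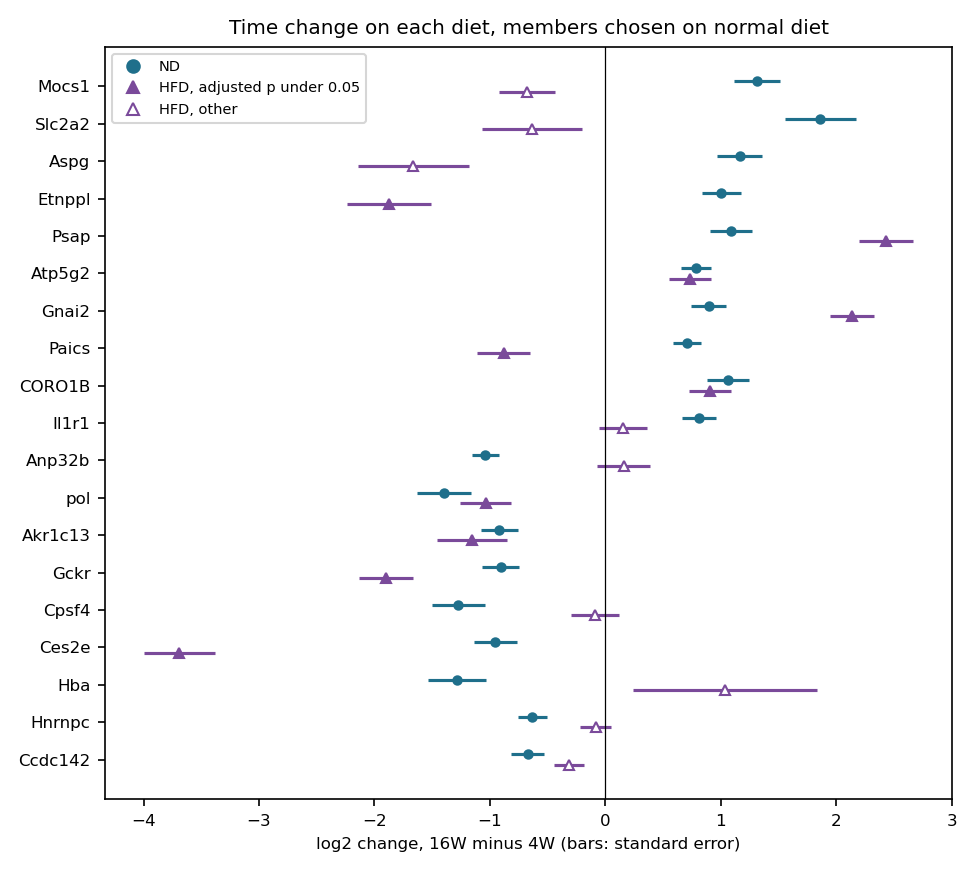
Log2 change from 4 to 16 weeks (horizontal axis, bars are standard errors) on normal diet (circles) and on high-fat diet (triangles, filled where the limma adjusted p is under 0.05) for the 19 of 20 genes tested on both. Psap and Gnai2 lie further right and Ces2e further left on high-fat diet, and Etnppl, Aspg and Mocs1 lie on opposite sides of 0.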

How the data were processed

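Poly(A) RNA of gerbil liver was sequenced and assembled without a genome by Trinity 2.4.0, and the longest transcript of each cluster was kept as a unigene, per the labels' protocols. Salmon and edgeR are named, with no version or role, per the submitters' processing notes. The deposited signal values are expression levels normalized by the authors; libraries share nearly the same sorted values, no source used here names the unit before that, and depth is unknown, so no counting interval can be given. Names come from the deposited table; the gerbil annotation (assembly Bangor_MerUng_6.1) was used for names alone. Genome positions and sequences were not analysed here, and neither were the 6 libraries of 8 weeks.

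Values were taken as log2(value + 1), a scale that compresses changes at low levels, and fitted with limma 3.58.1 (intensity trend, R 4.3.3) over the 3 libraries of 4 weeks and the 3 of 16 weeks for unigenes with a mean of at least 1, with Benjamini-Hochberg adjustment over all 8057 tested and a threshold of 0.05. HFD libraries were left out of this fit because they detect other unigenes, and were fitted alone, or together with ND in a fit over 12 libraries with an interaction term. Genes were named by rule: the 25 highest means, called genes or else the 10 smallest p in each direction, the 15 narrowest ranges among steady genes with a mean of at least 50, and up to 4 genes of each of 36 lists. The members, lists and rule were chosen with earlier results of these data known. Other genes were named after their values were seen: Adh6, Kif1b, Cnp and Cd97 for calls in an alternative, Creb3l3 for its cluster, Map1lc3b, Fbxl21 and Fmn1, and those of lists beyond 4. Alternatives were other pseudocounts and filters, rescaling, no trend, sums by symbol, the replicate number as a block and each library left out; a filter to unigenes above the lowest value in all 6 libraries was added after seeing the data. Some of the genes that the rule names are not reported here. The fit was tested on simulated data.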

Additional observations from a re-analysis of the deposited data

Results flagged for a closer look

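In 12 of the 20 genes chosen for their change with time on ND, the change differed between the diets by limma's interaction term (HFD minus ND, log2, Benjamini-Hochberg over 9487 unigenes, 3 libraries per group), beside 10.1% of all unigenes tested. The genes were chosen for their change on ND, which is part of this difference, so the count is not independent of the choice. The change on HFD was the more negative one in 7 of them. The difference was -2.88 for Etnppl (adjusted p = 0.00268), -2.83 for Aspg (adjusted p = 0.0097) and -2.50 for Slc2a2 (adjusted p = 0.0143). For the others of this kind it was -2.74 for Ces2e (adjusted p = 0.00229), -1.99 for Mocs1 (adjusted p = 0.00464), -1.59 for Paics (adjusted p = 0.00454) and -0.99 for Gckr (adjusted p = 0.0486). Ces2e and Gckr were lower at 16 weeks on both diets, and the remaining 5 were higher on ND with a negative log2 change on HFD. In 5 genes the difference was positive. It was 1.71 for PAL1 (adjusted p = 0.0394), 1.34 for Psap (adjusted p = 0.0126), 1.24 for Gnai2 (adjusted p = 0.00745), 1.20 for Anp32b (adjusted p = 0.0153) and 1.19 for Cpsf4 (adjusted p = 0.0415). Psap and Gnai2 were higher at 16 weeks on both diets, and Anp32b and Cpsf4, lower on ND, had log2 changes of 0.16 and -0.086 on HFD. PAL1 was listed at 0 in every HFD library, so its difference is its ND change with the sign turned. Without the HFD libraries numbered 1, 8 of the 20 were past the threshold. Library set and diet cannot be told apart in these differences.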

How the results depend on the processing

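Under 17 settings, the reported one included, the test of time on ND called 0 unigenes in all but 2. The fit over 12 libraries called 36, with 7 genes higher and 4 lower among those described, and the fit without ND 4W 2 called 1, higher, and 0 lower. Leaving out 1 library in turn therefore gave 0 to 1 calls, 0 to 1 higher and 0 to 0 lower. Stable members, whose 95% interval lies inside 2-fold, numbered 973 to 1979 over the settings (1326 in the fit reported) and 1075 to 1115 with 1 library left out. With the replicate number as a block, 0 unigenes were called (limma, smallest adjusted p 0.111) and 1174 genes were steady. The deviations of same-numbered libraries had r of 0.03, 0.02 and -0.01. The 4-week libraries numbered 1 and 2 were nearest to their own number, and the one numbered 3 was not. With 3 libraries per time and r near 0, this shows no clear pairing by number and cannot exclude one. On HFD 8 of 20 genes were called with the block as without it, and 0 without the HFD libraries numbered 1, which leaves 2 per time. The interaction was past the threshold for 12 genes, for 11 with the block and for 8 without the HFD libraries numbered 1. For the 20 genes chosen by p, 310 of 319 alternative values kept the verdict, 8 passed the threshold and 1 changed sign: Ces2e summed by symbol (0.031), as its unigenes differ in direction. Other changes of sign were in genes with small or uneven changes. They were insig1 (-0.16), EEF2 (0.65) and S100a8 (0.39) summed by symbol, and PPIA (0.030) and Emcn (0.065) under rescaling. With 1 library left out in turn the log2 change ranged from -0.44 to 1.67 for Saa4, -0.11 to 0.49 for CDK1, -0.68 to 0.35 for CCNB2, -0.044 to 0.38 for Fbn1, -0.27 to 0.10 for PPIA, -0.037 to 0.18 for RPLP0, -0.36 to 0.11 for MYL9, -0.52 to 0.022 for Robo4 and -0.19 to 0.10 for Emcn. The cause was not tested. Depth is unknown, and ranks near the top or bottom limit what a fold can show.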

Other observations

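Unigenes under 1 name did not always go together. Of 103 names with at least 2 tested unigenes, 7 had unigenes in opposite directions, each at an unadjusted p under 0.05: Mug1, Cyp2d3, Ces2e, EEF2, Cd63, Ssbp1 and pol. Mug1 was lower at 16 weeks in its most abundant unigene and higher in 3 others, among them TRINITY_DN36048_c1_g1, with 87.9, 338 and 168 at 4 weeks and 349, 1189 and 1134 at 16 weeks (log2 change 2.18). Of the Cyp2d3 unigenes, TRINITY_DN35260_c0_g3 had 181, 344 and 197 at 4 weeks and 588, 588 and 464 at 16 weeks (log2 change 1.23), opposite to the more abundant one. Which unigene stands for which gene copy was not tested.

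Outside the genes described, 25 named unigenes were above the lowest value in all 3 libraries of 16 weeks and in none of 4 weeks, and 6 the other way. Map1lc3b, a protein of autophagosome membranes, had 3.47, 4.20 and 4.42 at 16 weeks, and Fbxl21, a ubiquitin ligase subunit that acts on clock repressors, 4.47, 6.17 and 7.81. Among the 6 seen at 4 weeks alone, Fmn1, an actin-nucleating formin, had 1.88, 2.43 and 4.40. All of these values were low, and ND 4W 1 and ND 4W 3 also had the most unigenes at the lowest value (5273 and 4953); the part of this in the result was not tested.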
